A study of Mus musculus with 32 samples.

Results

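The mouse Hox genes of the 4 homeotic clusters were followed through retinal organoid differentiation with and without Mettl3. Members were the rows of the deposited expression table whose gene symbol is Hox, a cluster letter from a to d and a number, which gave 39 of 55492 rows. Cluster A on chromosome 6 held 11 of them, cluster B on chromosome 11 held 10, cluster C on chromosome 15 held 9 and cluster D on chromosome 2 held 9. They carry paralogue numbers from 1, the anterior end, to 13, the posterior end. Of the 39, 5 reached 1 FPKM (fragments per kilobase of transcript, scaled to mapped depth) in at least 1 library. Each of the 5 reached it in at least 2 of 32 libraries, and Hoxb2, Hoxb9, Hoxb13 and Hoxc13 are described here.

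Polyadenylated RNA was sequenced at days 0, 2, 4 and 6 from 4 kinds of culture, with 2 libraries per group, 16 groups and 32 libraries in all. WT was the embryonic stem cell line Rx:GFP, named for the eye field gene Rx (Rax) and green fluorescent protein. KO was a Mettl3 knockout of that line, Mettl3 being the catalytic subunit of the enzyme that deposits N6-methyladenosine on RNA. The other two were the KO line overexpressing wild type METTL3 fused to a domain labelled GRBD, without or with dexamethasone (Dex, 10 µM), a synthetic glucocorticoid, and are called here the fusion line without Dex and with Dex. Both fusion groups thus carry the Mettl3 knockout too, and they share a transgene whose promoter the labels do not name. Day 0 samples are labelled as embryonic stem cells and later ones as organoids. The medium of days 2 to 6 held AGN at 0.1 µM, a compound the labels do not spell out. Day 0 samples of the fusion line with Dex are labelled as Dex treated, whereas the treatment protocol lists 2, 4 and 6 days of Dex, and the sample labels were followed. The labels do not say whether the 2 libraries of a group came from separate cultures, so p-values measure only the spread between these libraries, which may be technical.

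Hox genes encode homeodomain transcription factors that specify position along the head-to-tail axis. In the embryo they are switched on in the order in which they lie in the cluster, anterior genes first, under the influence of retinoic acid, Wnt, Fgf and Cdx factors. Polycomb complexes keep them silent in pluripotent cells and in forebrain, and the eye arises from forebrain that lies anterior to every Hox expression domain. Their proteins bind DNA together with cofactors of the TALE class, the Pbx and Meis proteins.

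Because Hox paralogues share a conserved homeobox, reads could in principle be assigned to the wrong member, and a stretch of it is shown first. The stretches below are 45 bases around the recognition helix of the homeodomain in these 4 genes, from GENCODE M21 transcripts, with capitals at bases that differ from Hoxb9, the member of highest level.
Hoxb2: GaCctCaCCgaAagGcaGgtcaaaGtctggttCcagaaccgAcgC
Hoxb9: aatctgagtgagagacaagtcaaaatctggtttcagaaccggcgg
Hoxb13: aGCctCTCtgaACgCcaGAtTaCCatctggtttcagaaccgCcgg
Hoxc13: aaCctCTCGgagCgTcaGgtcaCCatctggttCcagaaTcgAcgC
Within this conserved stretch the others differed from Hoxb9 at between 12 and 14 of 45 bases. Over the whole homeobox of 180 bases, the 741 pairs of members were identical at between 46.1% and 93.9% of positions, with a median of 61.1%. The highest identity was between Hoxa3 and Hoxb3, and Hoxb13 and Hoxc13, both of paralogue group 13, shared 73.9%. The longest identical run between any pair was 52 bases, between Hoxa6 and Hoxb4, against reads of 150 bases per the labels.

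The level of the whole family was low. Of 1248 member-by-library values, 518 (41.5%) were listed at 0 and 17 were at 1 FPKM or more. The highest single value was 2.02 FPKM, for Hoxb9 in the fusion line without Dex at day 0. Hoxa6 was listed at 0 in all 32 libraries, and 12 members stayed below 0.1 FPKM in every library. Just under the 1 FPKM threshold lay 7 members with highest values between 0.5 and 1, namely Hoxd13 (0.79), Hoxa7 (0.60), Hoxa4 (0.59), Hoxb7 (0.59), Hoxa5 (0.56), Hoxb1 (0.54) and Hoxa2 (0.51). By cluster, the median of the members' highest values was 0.34 FPKM in A, 0.52 in B, 0.09 in C and 0.16 in D. By paralogue group, 2 of 12 members of groups 1 to 4, 0 of 11 of groups 5 to 8 and 3 of 16 of groups 9 to 13 reached 1 FPKM.

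Estimated depth ran from 28.8 to 55.2 M fragments per library. At that depth 3 fragments, taken as the limit that a count of 0 allows, correspond to between 0.032 and 0.062 FPKM on a transcript of 2 kb, counting error only. The leading members were well above this limit, with up to about 199 fragments for Hoxb2, 157 for Hoxb9, 111 for Hoxc13 and 76 for Hoxb13. The 2 libraries of a group had a Pearson r across genes of 0.9958 to 0.9976 on the log2(FPKM + 1) scale. Mettl3, the targeted gene, was not lower but higher in KO than in WT at the gene level, against the direction of the label. At day 0 Mettl3 was at 36.80 and 33.15 FPKM in WT and 43.83 and 42.88 FPKM in KO (log2 change 0.30, limma adjusted p = 0.000417). This gene-level value does not check the label, since the deleted part is not given in the sources used here, and KO means the libraries labelled so throughout. In the fusion line Mettl3 was at 68.52 and 71.78 FPKM without Dex and 75.06 and 75.01 FPKM with Dex at day 0. Pluripotency genes, 9 of 9 at 1 FPKM or more in each line at day 0, summed to between 4152 and 4426 FPKM there. The 8 eye field and retina genes summed at day 6 to 714.84 and 680.75 FPKM in WT, 120.71 and 120.94 in KO, 200.71 and 195.92 in the fusion line without Dex and 442.67 and 442.06 with Dex. In bulk RNA, fewer cells of a type and less RNA per cell cannot be told apart, which applies to every level given here.

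**Figure D1:**
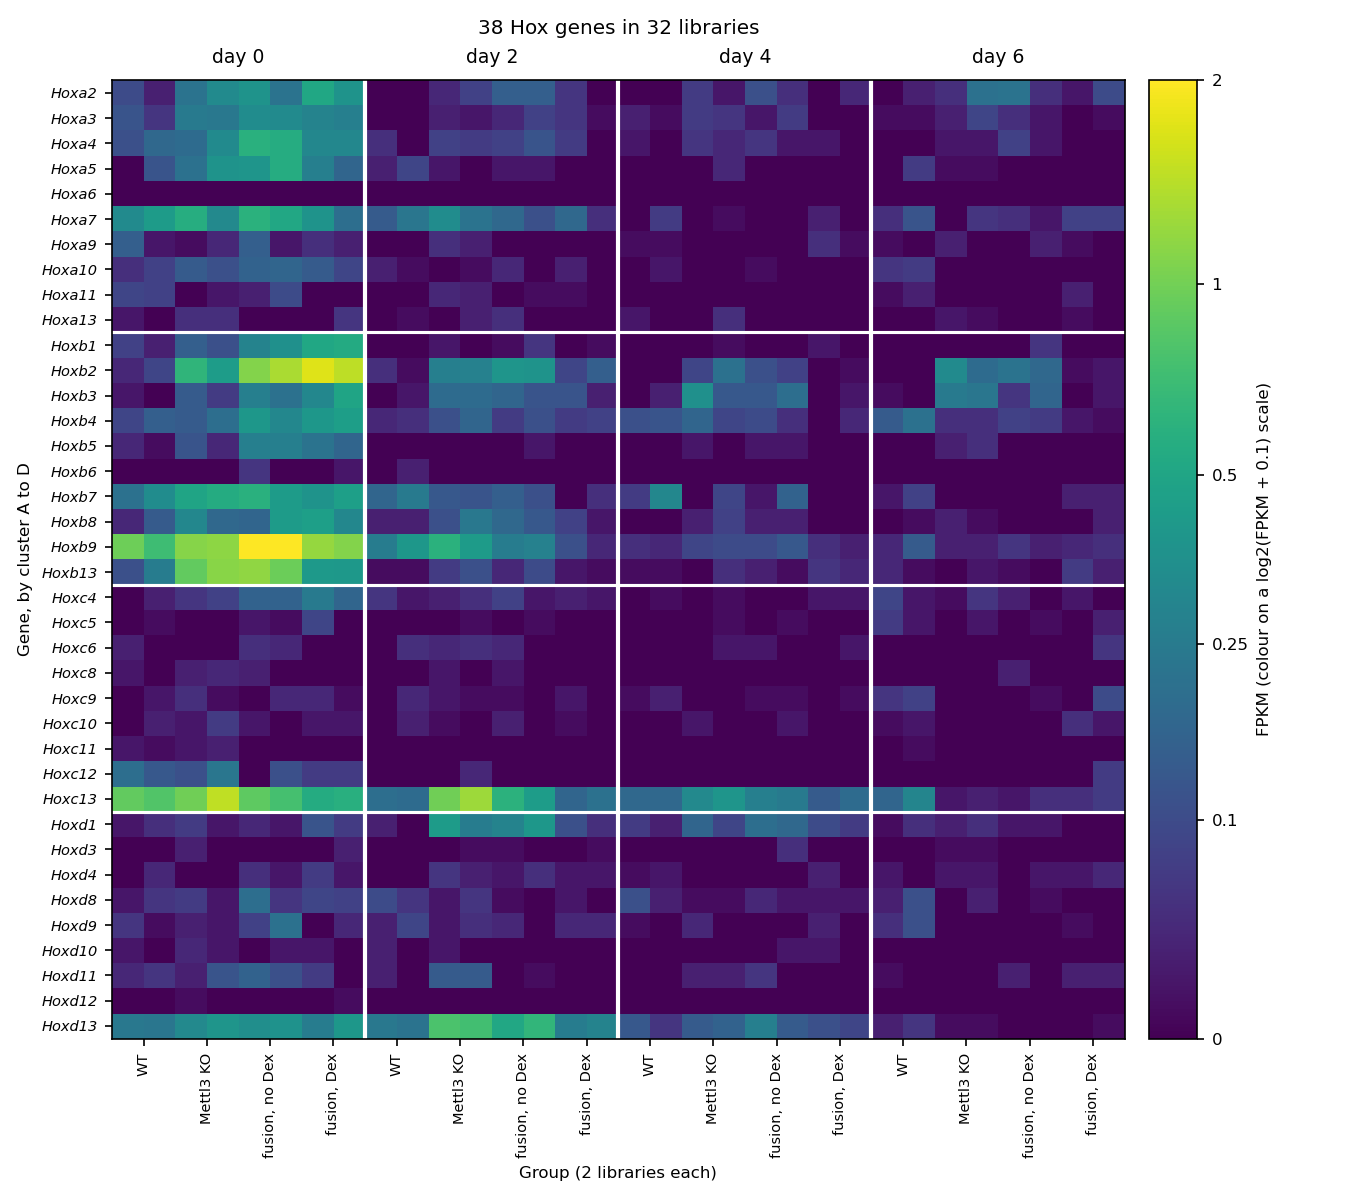
FPKM of 38 of the Hox genes (rows, by cluster A to D and paralogue number) in 32 libraries (columns, by day and line, 2 per group), with colour on a log2(FPKM + 0.1) scale. The bright cells sit almost wholly at day 0, with Hoxc13, Hoxd13 and Hoxd1 also bright at day 2 in KO and in the fusion line without Dex.

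The first question was when Hox transcripts were present. They were highest in the stem cells and fell as organoids formed. Of the 38 members above 0 in at least 1 library, 31 (81.6%) had their highest group mean at day 0, against 30.3% of all 34331 genes above 0, and 30.4% of the 19730 low-level genes. Of the 17 values at 1 FPKM or more, 16 were from day 0, and the other was Hoxc13 in KO at day 2 (1.25 FPKM). Summed over the 39 genes, the level in WT was 4.98 and 4.89 FPKM at day 0, 1.64 and 1.90 at day 2, 0.92 and 1.06 at day 4, and 1.10 and 1.67 at day 6. In KO the sum was 8.22 and 9.24 FPKM at day 0 and 0.99 and 1.21 at day 6. In the fusion line without Dex it was 12.67 and 12.08 FPKM at day 0 and 0.96 and 0.80 at day 6, and with Dex 10.00 and 9.23 at day 0 and 0.50 and 0.82 at day 6. In each line both day 0 libraries were above both libraries of every later day, and at day 6 no member exceeded 0.33 FPKM in any library.

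Tests used limma on log2(FPKM + 1) with Benjamini-Hochberg adjustment over all genes tested, called at an adjusted p under 0.05. Log2 changes are on that scale, which understates changes of genes this low. The 5 leading members passed the filter on low values (1 FPKM in at least 2 libraries, 16276 genes) through the groups where they were high, so counts over the family, and the tests of single members, come from the same fit without a filter (34331 genes, 38 members). Values with a library left out or another setting for Hoxb2, Hoxb9, Hoxb13 and Hoxc13 come from the filtered fit. At day 6 against day 0, 12 of 38 members were lower and 1 was higher in WT, where 21.6% of all genes were lower and 26.2% higher. The call of the higher member, Hoxc9 (0.00 and 0.02 FPKM at day 0, 0.06 and 0.08 at day 6), was lost on leaving out any of the 4 libraries and under rescaling. In KO 21 members were lower and 0 higher (21.3% and 26.8% of all genes). Of these, Hoxc8, Hoxc10, Hoxc11, Hoxc12 and Hoxd10 had no group with both libraries above about 3 fragments. In the fusion line without Dex 23 were lower and 0 higher (19.6% and 28.5% of all genes), and with Dex 21 were lower and 0 higher (20.7% and 27.4%). The same limit on fragments held for Hoxb1 in WT and Hoxa11 in the fusion line without Dex. The median change of all 16276 filtered genes was 0.17 on the log2 scale without Dex and 0.14 with Dex, and 0.00 in each after rescaling by median-of-ratios factors, under which 25 and 21 members were lower. In the 3 Mettl3-targeted cultures no member was thus called higher, beside over 26% of all genes.

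**Figure D2:**
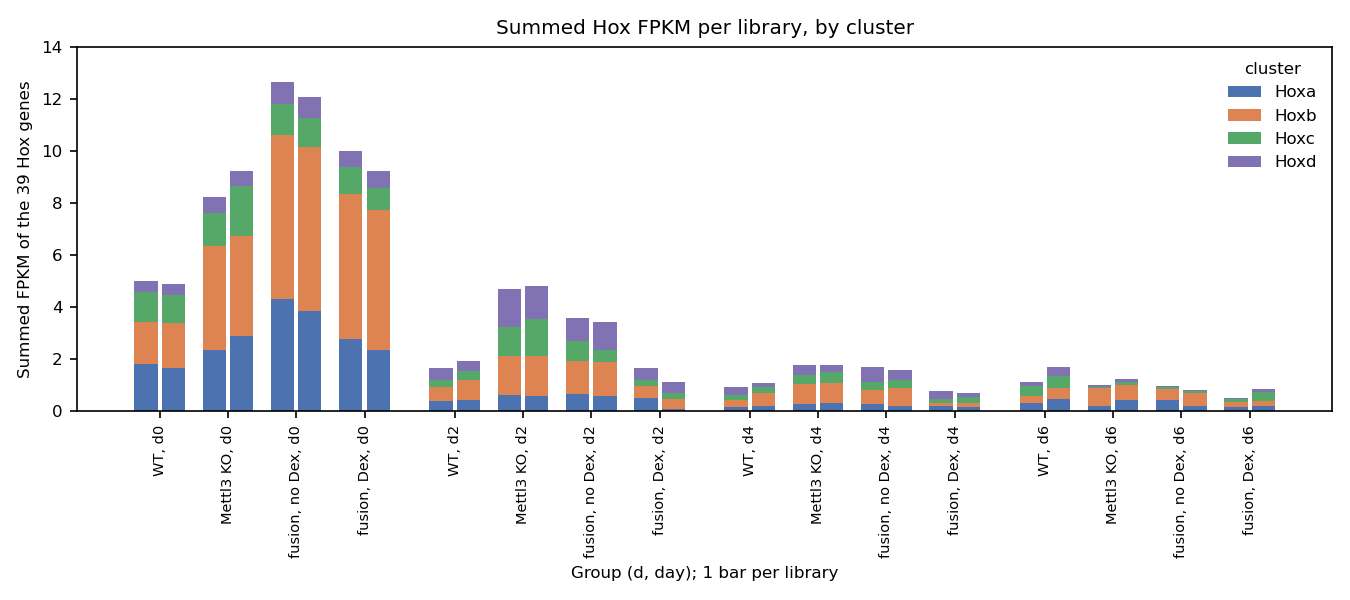
Summed FPKM of the 39 Hox genes in each of 32 libraries (bars, from 0), split by cluster, with groups on the horizontal axis by line and day. The sums run from 4.89 to 12.67 FPKM at day 0 and from 0.50 to 1.67 FPKM at day 6, and cluster B is the largest part in the 3 Mettl3-targeted cultures at day 0.

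Among the anterior members, Hoxb2, an early hindbrain gene of paralogue group 2 (GRCm38 chromosome 11, 96350525 to 96354012, plus strand), was low in WT on every day. WT had 0.04 and 0.09 FPKM at day 0, 0.05 and 0.01 at day 2, and 0 in all 4 libraries of days 4 and 6. KO had 0.63 and 0.44 FPKM at day 0, 0.27 and 0.28 at day 2, 0.09 and 0.21 at day 4, and 0.33 and 0.19 at day 6. The fusion line without Dex had 1.09 and 1.33 FPKM at day 0, 0.39 and 0.38 at day 2, 0.11 and 0.08 at day 4, and 0.22 and 0.18 at day 6. With Dex it had 1.70 and 1.45 FPKM at day 0, 0.09 and 0.15 at day 2, 0 and 0.01 at day 4, and 0.01 and 0.02 at day 6. At day 0 the 4 cultures did not overlap and ran in the order WT, KO, fusion without Dex, fusion with Dex. By day 6 KO and the fusion line without Dex were at 0.18 FPKM or more, and WT and the fusion line with Dex at 0.02 or less. KO against WT at day 0 gave a ratio of FPKM of 8.23 and a log2 change of 0.53 ± 0.07 (limma adjusted p = 5.65e-06), and the fusion line with Dex against WT a ratio of 24.2 and a change of 1.27 ± 0.07 (limma adjusted p = 6.35e-11). At day 6 KO against WT was 0.33 ± 0.07 (limma adjusted p = 0.000426) and Dex against no Dex fell by 0.24 ± 0.07 (limma adjusted p = 0.0115). In the filtered fit the latter comparison lost its call without replicate 1 of either group, at changes of -0.22 and -0.23. Hoxb3os, an antisense transcript that shares 953 exonic bases with Hoxb2, stayed at or under 0.45 FPKM. Whether the authors counted by strand is not given in the sources used here, so reads of the shared stretch cannot be told apart.

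Hoxb3, the neighbour of Hoxb2 and a gene of posterior hindbrain identity, stayed under 0.5 FPKM and was tested without the filter. At day 6 Hoxb3 was at 0.01 and 0.00 FPKM in WT, 0.25 and 0.23 in KO, 0.06 and 0.17 in the fusion line without Dex, and 0.00 and 0.02 with Dex. KO was above WT at day 6 by 0.30 ± 0.07 on the log2 scale (limma adjusted p = 0.00183), under all 7 alternative settings tried. At day 4 KO was at 0.36 and 0.13 FPKM against 0.00 and 0.03 in WT (0.29 ± 0.07, limma adjusted p = 0.00328), a call that rested on KO replicate 1. Hoxb2 and Hoxb3 were the only 2 of 38 members higher in KO than in WT at days 4 and 6, where 18.5% and 17.1% of all genes were higher. In the filtered fit the Hoxb2 call at day 4 was lost without either WT replicate or KO replicate 2. It was also lost with the compared groups only (limma adjusted p = 0.0734). As Hoxb3 shares 2250 exonic bases with Hoxb3os, the same limit on strand applies.

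Beside these, the 14 hindbrain and spinal cord markers summed at day 6 to 14.37 and 14.84 FPKM in WT, 108.83 and 113.10 in KO, 35.57 and 36.58 in the fusion line without Dex and 18.71 and 20.51 with Dex. At day 6, 5 of the 11 that passed the filter were higher and 3 lower in KO than in WT, where 30.9% of all filtered genes were higher and 34.2% lower. Irx3, a homeobox gene of caudal neural plate, made up most of the KO sum at 95.30 and 98.25 FPKM, against 4.26 and 4.38 in WT. Egr2 (Krox20), the direct activator of Hoxb2 in rhombomeres 3 and 5, did not exceed 0.54 FPKM in any library, with 0.44 and 0.32 in KO at day 6. The 7 neural crest markers summed to 4.5 and 4.54 FPKM in WT at day 6 and 83.56 and 84.23 in KO. None was at 0 in KO, and 0 of 7 in WT but 7 of 7 in KO had a group mean of 1 FPKM or more. Markers this low in WT can pass the filter through the groups where they were high, so no count of calls is given. The part of these cell types in the Hoxb2 and Hoxb3 levels was not tested.

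**Figure D3:**
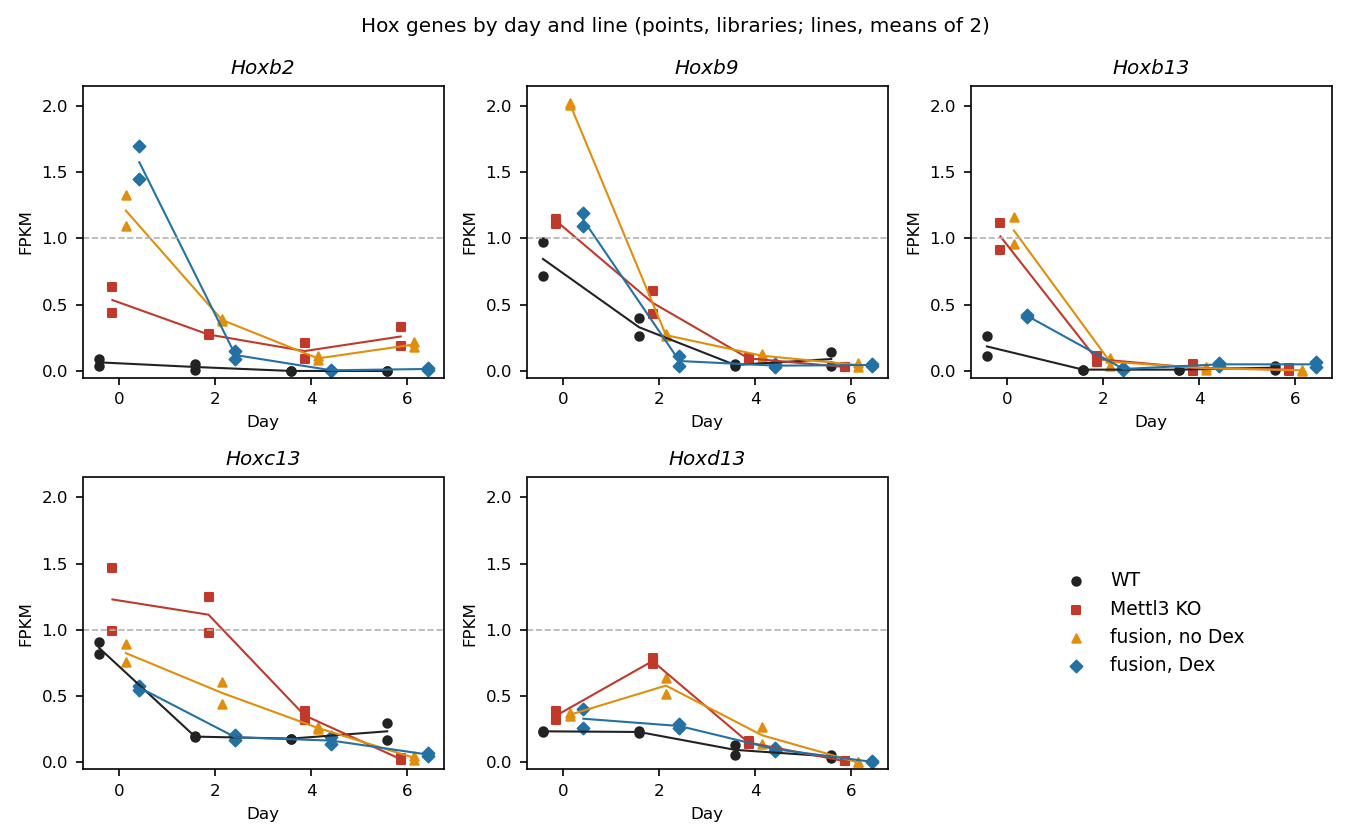
FPKM of Hoxb2, Hoxb9, Hoxb13, Hoxc13 and Hoxd13, by day (horizontal axis) and line (colour and marker), with a point per library, lines through the means of 2 and a dashed line at 1 FPKM. Hoxb9 and Hoxb13 drop between days 0 and 2 in every line, Hoxb2 is at 0.09 FPKM or less in every WT library, and Hoxc13 and Hoxd13 stay high at day 2 in KO.

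Of the posterior members, Hoxb9 (chromosome 11, 96271457 to 96276595, plus strand), a gene of thoracic identity, had the highest level of the family. It was at 0.97 and 0.72 FPKM in WT at day 0, 1.11 and 1.15 in KO, 2.02 and 2.01 in the fusion line without Dex and 1.19 and 1.09 with Dex. At day 2 Hoxb9 was at 0.26 and 0.40 FPKM in WT, 0.60 and 0.43 in KO, 0.26 and 0.28 without Dex and 0.11 and 0.04 with Dex. From day 4 it was at or under 0.14 FPKM in every library. The fusion line without Dex was highest at day 0 and KO at day 2, and the fusion line with Dex lowest at day 2. Without Dex against KO at day 0 the change was 0.50 ± 0.06 (limma adjusted p = 5.24e-06) and with Dex against without Dex it fell by 0.49 ± 0.06 (limma adjusted p = 8.98e-06). These 2 comparisons share the libraries of the fusion line without Dex. KO against WT gave 0.21 ± 0.06 at day 0 (limma adjusted p = 0.0187). In the filtered fit this comparison lost its call without replicate 2 of WT (change of 0.11) or of KO (0.2). It was also lost there at a pseudocount of 0.1 (limma adjusted p = 0.22).

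Hoxb13 (chromosome 11, 96194316 to 96197447, plus strand), the most posterior gene of cluster B, separated WT from the Mettl3-targeted cultures at day 0. WT had 0.11 and 0.26 FPKM, KO 0.91 and 1.12, the fusion line without Dex 1.16 and 0.96, and with Dex 0.42 and 0.41. KO and the fusion line without Dex overlapped, the fusion line with Dex lay between them and WT, and the 2 WT libraries were the lowest. The ratio of KO to WT was 5.49 (log2 change 0.77 ± 0.05, limma adjusted p = 4.18e-09), and that of the fusion line with Dex to WT was 2.24 (0.26 ± 0.05, limma adjusted p = 0.0011). In the filtered fit the latter comparison (0.26 ± 0.07, limma adjusted p = 0.00269) lost its call without WT replicate 1, at a change of 0.17. It was also lost there with the compared groups only (limma adjusted p = 0.0923). With Dex against without Dex fell by 0.54 ± 0.05 (limma adjusted p = 4.68e-07). From day 2 Hoxb13 was at or under 0.11 FPKM in every library. Between Hoxb13 and Hoxb9 lies Gm53, a long intergenic noncoding RNA (96251105 to 96264868) that was the most abundant transcript of the 4 cluster regions. Gm53 was at 16.35 and 13.50 FPKM in WT at day 0, 12.03 and 12.84 in KO, 11.13 and 9.39 in the fusion line without Dex and 13.13 and 12.79 with Dex, and at or under 0.75 in every library at day 6. It was thus lower at day 6 than at day 0 in every line, and KO did not pass the test against WT at day 0 (log2 change -0.24 ± 0.11, limma adjusted p = 0.0928).

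Hoxc13 (chromosome 15, 102921103 to 102928814, plus strand), known for its role in hair and nail, kept its level longest in KO. WT had 0.91 and 0.82 FPKM at day 0 and 0.20 and 0.19 at day 2. KO had 0.99 and 1.47 FPKM at day 0, 0.98 and 1.25 at day 2, 0.32 and 0.39 at day 4, and 0.02 and 0.03 at day 6. The fusion line without Dex had 0.89 and 0.76 FPKM at day 0 and 0.61 and 0.44 at day 2, and with Dex it had 0.55 and 0.58 at day 0 and 0.17 and 0.21 at day 2. At day 2 WT and the fusion line with Dex overlapped, and KO was above the fusion line without Dex, which was above both. KO against WT at day 2 gave a ratio of 5.72 (log2 change 0.82 ± 0.08, limma adjusted p = 1.55e-07), and Dex against no Dex fell by 0.36 ± 0.08 (limma adjusted p = 0.00314). In KO the change from day 0 to day 2 was -0.07 ± 0.08 (limma adjusted p = 0.632), and in WT it was -0.64 ± 0.08 (limma adjusted p = 2.55e-06). At day 6 WT was the highest line, at 0.17 and 0.30 FPKM, against 0.02 and 0.03 in KO (log2 change -0.27 ± 0.08, limma adjusted p = 0.0135). In the filtered fit this comparison lost its call without WT replicate 2, at a change of -0.19.

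In cluster D, Hoxd13 and Hoxd1 had their highest levels at day 2. Hoxd13, the most posterior gene of that cluster and a regulator of digits, was at 0.24 and 0.23 FPKM in WT at day 0 and 0.24 and 0.22 at day 2. In KO it was at 0.32 and 0.39 FPKM at day 0 and 0.79 and 0.74 at day 2. In the fusion line without Dex it was at 0.35 and 0.37 FPKM at day 0 and 0.52 and 0.64 at day 2, and with Dex at 0.26 and 0.40 at day 0 and 0.26 and 0.29 at day 2. Both KO and both no Dex libraries at day 2 were thus above every other Hoxd13 library. Tested without the filter, KO was above WT at day 2 by 0.52 ± 0.05 (limma adjusted p = 1.10e-07), and Dex against no Dex fell by 0.31 ± 0.05 (limma adjusted p = 0.000138). Hoxd1, at the anterior end of the same cluster, had 0.03 and 0.00 FPKM in WT at day 2, 0.43 and 0.26 in KO, 0.29 and 0.40 in the fusion line without Dex and 0.11 and 0.05 with Dex. For Hoxd1 the change of KO against WT at day 2 was 0.40 ± 0.05 (limma adjusted p = 3.24e-06), and Dex against no Dex fell by 0.32 ± 0.05 (limma adjusted p = 0.000115). These 4 calls held under all 7 alternative settings tried. Hoxd1, Hoxd11 and Hoxb3, like the noncoding Gm53, were chosen after their values were seen. Hoxd11 was at 0.14 and 0.14 FPKM in KO at day 2 and at or under 0.03 in the other 6 libraries of that day, whereas Hoxd12, between Hoxd11 and Hoxd13, did not exceed 0.01 FPKM in any library.

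From day 0 to day 2 most members that changed fell. In WT 12 were lower and 0 higher (21.3% and 14.2% of all genes), in KO 15 lower and 4 higher (16.1% and 20.5%), without Dex 19 lower and 2 higher (14.3% and 21.9%), and with Dex 17 lower and 0 higher (17.6% and 14.7%). Some of the lower calls had no group with both libraries above about 3 fragments. These were Hoxb1 and Hoxc11 in WT, Hoxc10, Hoxc11 and Hoxc12 in KO, and Hoxa11 without Dex. Hoxd13 and Hoxd1 were the 2 members higher at day 2 without Dex, and in KO Hoxc6 and Hoxd4 were called higher too. Hoxc6 (0.04 and 0.05 FPKM) and Hoxd4 (0.06 and 0.03) were low at day 2 in KO, and both were at 0 at day 0. For Hoxd4 the day 2 libraries in KO were not both above about 3 fragments. In KO Hoxd13 rose by 0.38 ± 0.05 (limma adjusted p = 3.95e-06) and Hoxd1 by 0.36 ± 0.05 (limma adjusted p = 8.37e-06), and in WT the changes were -0.01 ± 0.05 (limma adjusted p = 1.0) and -0.03 ± 0.05 (limma adjusted p = 0.859), all without the filter. Whether these changes differed between lines was not tested.

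The sequences before the starts of Hoxd13 and Hoxd1, the pair that rose from day 0 to day 2 in KO and in the fusion line without Dex, are shown 5′ to 3′ as the 250 bases upstream of the RefSeq start (GRCm38.p6, plus strand), with CG dinucleotides, the site of DNA methylation and a feature of promoters bound by Polycomb complexes, in capitals.
Hoxd13, chr2:74667975-74668224: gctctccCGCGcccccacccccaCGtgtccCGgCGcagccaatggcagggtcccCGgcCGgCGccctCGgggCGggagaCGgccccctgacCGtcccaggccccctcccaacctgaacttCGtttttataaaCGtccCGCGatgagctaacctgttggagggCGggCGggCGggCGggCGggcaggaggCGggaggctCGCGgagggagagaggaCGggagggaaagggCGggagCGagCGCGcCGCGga
Hoxd1, chr2:74762730-74762979: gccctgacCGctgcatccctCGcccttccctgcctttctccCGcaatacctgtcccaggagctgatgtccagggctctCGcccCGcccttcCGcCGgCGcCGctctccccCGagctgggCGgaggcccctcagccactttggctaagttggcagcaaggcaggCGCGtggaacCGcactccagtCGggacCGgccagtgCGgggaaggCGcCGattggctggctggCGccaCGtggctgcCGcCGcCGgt
Hoxd13 held 31 CG and Hoxd1 held 24 in 250 bases, at 74.4% and 71.6% G or C. RefSeq promoters of 300 bases were found for 22 members, 24 promoters in all. They had a median ratio of observed to expected CG of 0.63, against 0.38 over 32841 promoters. The Hoxd13 promoter held TATAAA, which on either strand was in 4 of 24 Hox promoters (16.7%) and in 13.62% of all. AGGTCA, the element bound by nuclear receptors such as those of retinoic acid, was on either strand in 7 of 24 (29.2%), of Hoxa5, Hoxb4, Hoxc4, Hoxd3, Hoxd4, Hoxd8 and Hoxd10, and in 16.26% of all. Its direct repeat with a spacer of 5 bases was in 0 of 24 and 0.01% of all.

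Beside the day 2 values, the 13 mesoderm markers summed to 15.26 and 13.79 FPKM in WT, 33.20 and 32.27 in KO, 27.05 and 24.36 in the fusion line without Dex and 17.42 and 17.37 with Dex. None was at 0 in both libraries at day 2 in WT, KO or the fusion line without Dex, and Msgn1 was with Dex. Of the 7 that passed the filter, 5 were higher and 1 lower in KO than in WT at day 2, where 37.5% of all filtered genes were higher and 21.3% lower. Their part in the levels of Hoxd13, Hoxd1 and Hoxc13 was not tested.

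The second question was how loss of Mettl3 and its return as a fusion changed the family. At day 0, 12 of 38 members were higher and 1 lower in KO than in WT, where 9.19% of all genes were higher and 16.1% lower. Those higher were Hoxa2, Hoxa3, Hoxa4, Hoxa5, Hoxa10, Hoxb1, Hoxb2, Hoxb5, Hoxb7, Hoxb9, Hoxb13 and Hoxc13, so that clusters A and B gave 11 of the 12, and the lower one was Hoxa11. Clusters C and D had less to call, as 5 of 9 and 4 of 9 members stayed below 0.1 FPKM in every library. In A and B this held for 2 of 11 and 1 of 10. Leaving out each of the 4 libraries gave between 8 and 10 higher, with 8 without replicate 2 of WT or of KO. Hoxa5, for example, had 0.00 and 0.12 FPKM in WT and 0.21 and 0.38 in KO (0.29 ± 0.06, limma adjusted p = 0.00118, without the filter). The Hoxa5 call held under all 7 alternative settings tried. Others were less firm, as Hoxb1 and Hoxa2 kept theirs under 5 of the 7, Hoxa4 under 4 and Hoxb7 under 3. The 10 endoderm markers moved at day 0 too, with sums of 23.65 and 22.47 FPKM in WT, 4.82 and 5.41 in KO, 7.70 and 7.30 in the fusion line without Dex and 8.24 and 8.02 with Dex. Of the 9 that passed the filter, 6 were lower and 0 higher in KO than in WT, where 29.8% of all filtered genes were lower and 18.4% higher. Ttr was at 0 in every line and Afp at 0 in KO, and their part in the Hox result was not tested.

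At day 2, 9 members were higher and 0 lower in KO than in WT, where 19.7% of all genes were higher and 10.9% lower. The 9 were Hoxb2, Hoxb3, Hoxb4, Hoxb9, Hoxc13, Hoxd1, Hoxd4, Hoxd11 and Hoxd13. For Hoxd4 neither group had both libraries above about 3 fragments. Fewer were called higher on leaving out any single library. The share of members called higher is near the background, and among genes that passed the filter rescaling moved the share of higher among all calls from 63.8% to 52.3%. At day 4, 2 were higher and 0 lower (18.5% and 12.3% of all genes). The share of higher among all calls of filtered genes went from 60.3% to 49.9% on rescaling. At day 6, 2 were higher and 6 lower (17.1% and 19.4% of all genes). The lower ones included Hoxa10, Hoxb4, Hoxc9, Hoxc13 and Hoxd9, which were at or under 0.05 FPKM in both KO libraries, and 2 were lower without WT replicate 2 or either KO replicate. The change from day 0 to day 6 was more negative in KO than in WT for 10 of 38 members and more positive for 0, against 13.6% and 16.8% of all genes (limma interaction term). As day 6 levels were low, this term also carries the day 0 differences between KO and WT.

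In the fusion line without Dex against KO, 12 of 38 members were higher and 4 lower at day 0, where 9.26% of all genes were higher and 15.1% lower. Leaving out a library gave 8 to 12 higher (8 without KO replicate 1) and 1 to 4 lower (1 without KO replicate 2, 2 without replicate 2 of the fusion line). After rescaling 15 were higher and 4 lower, and the share of higher among all calls of filtered genes went from 39.3% to 55.4%. Hoxa4 rose from 0.19 and 0.33 FPKM in KO to 0.59 and 0.56 (0.32 ± 0.04, limma adjusted p = 1.11e-05), and Hoxb1, the labial gene of cluster B that patterns rhombomere 4, from 0.15 and 0.11 to 0.29 and 0.36 (0.23 ± 0.03, limma adjusted p = 5.54e-06), both without the filter. The lower ones were Hoxa13, Hoxc11, Hoxc12 and Hoxc13. For Hoxc11 and Hoxc12, and for Hoxa11 among the higher, neither group had both libraries above about 3 fragments. At day 2, 0 were higher and 4 lower, Hoxb9, Hoxc13, Hoxd11 and Hoxd13 (6.51% and 9.94% of all genes), and the Hoxd13 call was lost on rescaling, at a pseudocount of 0.1 and without 3 of the 4 libraries. At days 4 and 6 limma called 0 of 38 in either direction, with 0 and 2 at an unadjusted p under 0.05, where 4.05% and 10.9% of all genes were higher and 7.39% and 14.3% lower. The share of higher among all calls of filtered genes at day 4 went from 36.3% to 49.0% on rescaling.

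With Dex against without Dex at day 0, 2 of 38 members were higher and 11 lower, where 13.5% of all genes were higher and 7.56% lower. Rescaling gave 2 higher and 13 lower, and a pseudocount of 0.1 gave 0 and 6. Among filtered genes, rescaling moved the share of higher among all calls from 62.9% to 51.3%. Leaving out replicate 1 without Dex or replicate 2 with Dex left 7 lower. The higher pair was Hoxb1 and Hoxb2. Hoxb1 was at 0.51 and 0.54 FPKM with Dex (0.20 ± 0.03, limma adjusted p = 3.24e-05, without the filter). The lower ones included Hoxa4, Hoxa5, Hoxa7, Hoxa10, Hoxa11, Hoxb5, Hoxb9, Hoxb13, Hoxd9 and Hoxd11. Hoxa4 went to 0.31 in both libraries with Dex (-0.27 ± 0.04, limma adjusted p = 0.000139, without the filter). The Hoxb1 and Hoxa4 calls were both lost at a pseudocount of 0.1. At day 0 the mesoderm markers summed to 20.38 and 20.04 FPKM without Dex, 16.03 and 16.45 with Dex, 12.57 and 11.95 in KO and 11.95 and 11.91 in WT, with none at 0, and their part was not tested.

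At day 2, 5 members were lower with Dex and 0 higher, Hoxb2, Hoxb9, Hoxc13, Hoxd1 and Hoxd13, where 14.7% of all genes were lower and 5.72% higher. Rescaling left 5 lower and moved the share of higher among all calls of filtered genes from 28.7% to 46.8%. At day 4 limma called 0 in either direction, with 3 (Hoxb3, Hoxd1 and Hoxd13) at an unadjusted p under 0.05, where 8.51% of all genes were higher and 10.0% lower. At day 6, 1 was lower, Hoxb2 (9.75% of all genes lower, 11.7% higher). For the change from day 0 to day 6, it was more positive with Dex than without for 10 members and more negative for 3, Hoxb1, Hoxb2 and Hoxb3, against 10.8% and 13% of all genes (limma interaction term). This term, too, carries the day 0 differences between the 2 groups. Leaving out a library gave between 4 and 9 with a more positive change, with 4 without replicate 2 of the day 6 group on either side, 5 without Dex replicate 2 of day 0, and 6 without replicate 1 of the other groups save Dex day 0. It gave 2 to 5 with a more negative change.

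**Figure D4:**
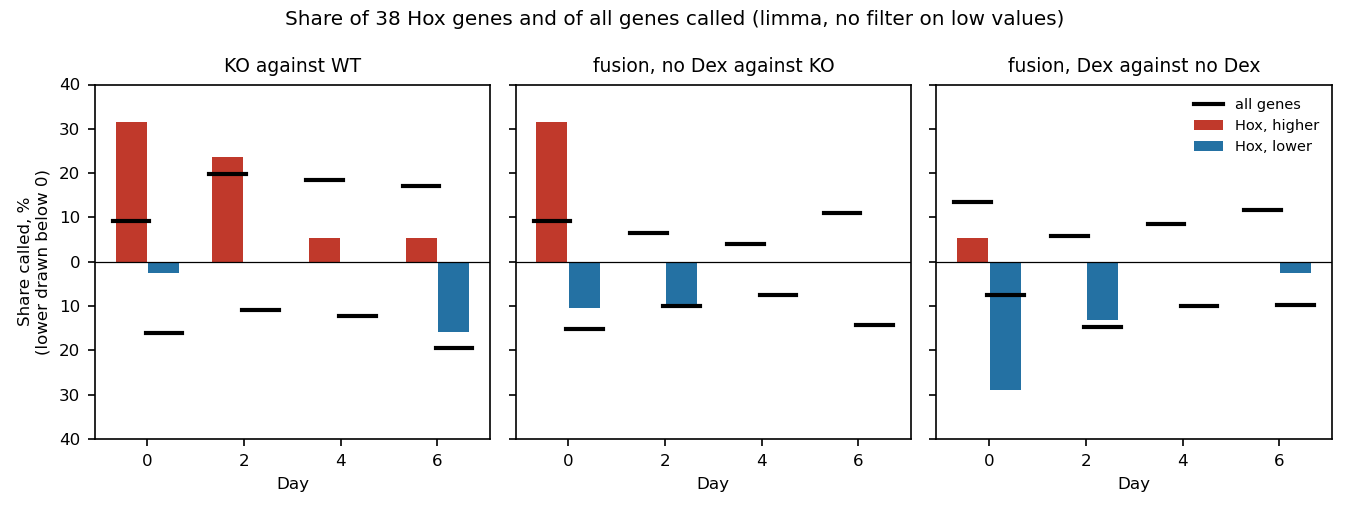
Share of 38 Hox genes called higher (red, above 0) or lower (blue, drawn below 0) by limma without a filter on low values, by day, in 3 comparisons, with black lines at the share of all genes called in that direction. Bars pass the black lines mainly at day 0, where 12 members were higher in KO than WT, 12 higher without Dex than in KO, and 11 lower with Dex than without.

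The fusion line with Dex was also set against WT, whose libraries it shares with the KO comparison. At day 0, 14 of 38 members were higher and 4 lower (9.54% and 16.7% of all genes), with 12 to 15 higher and 1 to 5 lower on leaving out a library. The higher ones included Hoxb1, at 0.08 and 0.03 FPKM in WT (0.53 ± 0.03, limma adjusted p = 1.26e-10, without the filter), and 7 others of cluster B. At day 2, 0 were higher and 1, Hoxb9, was lower (5.11% and 7.72% of all genes). At day 4, 0 were higher and 2, Hoxb4 and Hoxb7, lower (11.9% and 9.16%). At day 6, 0 were higher and 4, among them Hoxa10, Hoxb4 and Hoxc13, lower (15.4% and 17.8%), of which rescaling left Hoxa10 and Hoxb4. On leaving out Dex replicate 1, 2 were lower at day 6. In the same way, 0 were lower at day 2 without WT replicate 2, and at day 4 without WT replicate 2 or Dex replicate 1. For Hoxd13 at day 2 the difference from WT was 0.05 ± 0.05 (limma adjusted p = 0.721) and for Hoxd1 0.09 ± 0.05 (limma adjusted p = 0.345), without the filter.

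Across the 16 group means, Hoxb9 and Hoxb13 ran alike, with a Pearson r of 0.90. Hoxd13 followed Hoxc13 (0.75) and Hoxd1 (0.78), and Hoxb3 followed Hoxb2 (0.78). Hoxb2 was as close to Hoxb9 (0.79), and Hoxc13 was at 0.72 with Hoxb9, so these pairs do not mark separate sets. By Spearman rho Hoxd13 was closer to Hoxb9 (0.8) than to Hoxd1 (0.53). Hoxd1 did not follow Hoxb13 (-0.18). These are descriptions over 16 points that share days and lines, and the first rests on the high day 0 groups.

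All 9 TALE cofactor genes passed the filter, and 8 were higher and 1 lower at day 6 than at day 0 in WT, where 43.6% of all filtered genes were higher and 34.5% lower. Meis1 was at 0.99 and 0.79 FPKM in WT at day 0 and 25.19 and 26.08 at day 6 (3.82 ± 0.08, limma adjusted p = 1.99e-19). Meis2 went from 2.22 and 1.43 to 21.74 and 20.75, Meis3 from 2.08 and 2.80 to 36.56 and 37.04, and Pbx2 from 49.58 and 50.24 to 124.08 and 124.59. In KO at day 6 Meis1 was at 28.13 and 27.57 FPKM and did not differ from WT by the test (0.12 ± 0.08, limma adjusted p = 0.199). In the fusion line Meis1 was at 10.72 and 10.20 without Dex and 18.13 and 17.52 with Dex (0.72 ± 0.08, limma adjusted p = 3.34e-07). At day 6 the 9 cofactors summed to between 268.90 and 329.60 FPKM per library, while the 39 Hox genes summed to between 0.50 and 1.67.

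**Figure D5:**
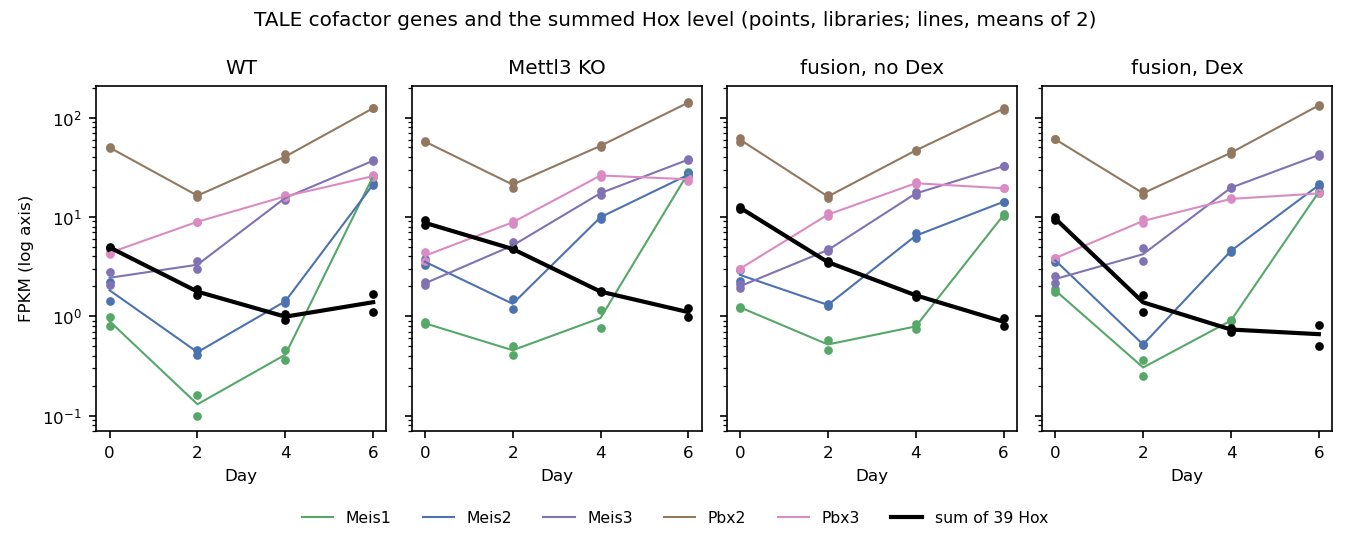
FPKM on a log axis of 5 TALE cofactor genes and of the sum of the 39 Hox genes (thick line), by day, with a panel per line, points for libraries and lines through the means of 2. The Hox sum ends at or below 1.67 FPKM at day 6 in every line, when each of the 5 cofactors is at 10.20 FPKM or more.

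The 10 upstream activators of the clusters summed to 4.07 and 3.65 FPKM in WT at day 0 and 19.01 and 18.33 at day 6. Their day 6 sums were 34.01 and 33.4 FPKM in KO, 33.85 and 34.67 without Dex, and 31.2 and 31.59 with Dex. The Cdx genes among them were low. Cdx1, a homeobox gene that induces trunk Hox genes, was at 0.51 and 0.44 FPKM in WT at day 0, 0.82 and 1.00 in KO, 1.37 and 2.17 in the fusion line without Dex and 0.43 and 0.48 with Dex. Cdx1 was thus highest in the same group as Hoxb9 and Hoxb13, where both libraries were above both with Dex. Other members did not share this group, as Hoxb1, Hoxb2, Hoxb3, Hoxb4 and Hoxb8 were highest with Dex at day 0 and Hoxc13 in KO at day 0. The part of Cdx1 in the Hox levels was not tested. From day 2 Cdx1 was at or under 0.07 FPKM in every library. Cdx2 did not exceed 0.49 FPKM and Cdx4 did not exceed 0.23 FPKM in any library. Of the 10 activators, 6 passed the filter, and 3 were higher and 2 lower in KO than in WT at day 6 (30.9% and 34.2% of all filtered genes).

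Of the retinoic acid genes, 9 passed the filter, and at day 6 3 were higher and 6 lower in KO than in WT, where 30.9% of all filtered genes were higher and 34.2% lower. Crabp2, which binds retinoic acid in the cytoplasm, was among the higher, at 640.23 and 616.21 FPKM in WT and 1623.39 and 1586.23 in KO. Aldh1a3, which makes retinoic acid in the developing eye, was at 12.08 and 12.24 FPKM in WT at day 6, 0.11 and 0.13 in KO, 0.14 and 0.15 in the fusion line without Dex and 0.92 and 1.02 with Dex. Cyp26a1, which degrades retinoic acid, was at 11.49 and 10.83 FPKM in WT at day 6 and 0.12 and 0.17 in KO, but at day 4 it was at 33.43 and 31.01 in KO and 8.93 and 9.12 in WT. Gbx2, which sets the midbrain-hindbrain boundary and is also expressed in naive stem cells, was at 51.01 and 50.62 FPKM in WT at day 0 and 0.66 and 0.65 at day 6, and in KO at 39.92 and 40.48 at day 0 and 0.30 in both libraries at day 6. Of the 22 Polycomb and trithorax genes, all tested, 9 were higher and 12 lower at day 6 than at day 0 in WT (43.6% and 34.5% of all filtered genes), and 11 were higher and 9 lower in KO than in WT at day 6 (30.9% and 34.2%). At day 0, 5 were higher and 14 lower in KO than in WT (18.4% and 29.8%). The lists were written with earlier results of these data known, and their counts are descriptions.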

How the data were processed

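Gene-level FPKM values were used as the authors deposited them, in 1 table of 55492 genes and 32 libraries. STAR, Cuffdiff and the mm10 genome are named per the submitters' processing notes, without versions, and the annotation and strand setting are not given in the sources used here. FPKM is already scaled for depth and transcript length, so no count model was run. Values were set to log2(FPKM + 1) and fitted with limma 3.58.1 in R 4.3.3, 1 mean per group over all 16 groups, two-sided, with Benjamini-Hochberg adjustment at 0.05, on the 16276 genes at 1 FPKM or more in at least 2 libraries. Tests and counts printed for the members are from the same model without this filter (34331 genes), except where the filtered fit is named.

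For an estimate of depth, low values were read as multiples of 1 fragment, and 89.1% to 93.1% of them per library came within 0.2 of a whole fragment number. Depth and a length offset were fitted to those steps in each library, so this share is a description of the fit, the depths are approximate and no exact counts are recovered. Same-numbered libraries of different groups deviated together with r between -0.09 and 0.13 over 120 group pairs, so the numbers do not pair them.

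The members and gene lists were chosen with earlier results of these data known. Every member at 1 FPKM or more in a library is described with values, those at 0.5 to 1 as just outside, and of each other list at most 4 genes of largest change at day 6 plus Cdx1, Cdx2, Cdx4, Gbx2, Egr2 and Cyp26a1. Some items that this rule takes in are not reported here. Alternatives were a pseudocount of 0.1, no filter, median-of-ratios rescaling, the compared groups only, a replicate block and leaving out each library. Comparisons of day 2 with day 0, no filter together with a pseudocount of 0.1, and alternatives within the unfiltered fit were added after seeing the data.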

Additional observations from a re-analysis of the deposited data

Results flagged for a closer look

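For 6 values, changes from day 0 to day 6 differed between lines by the limma interaction term of the filtered fit (log2(FPKM + 1) scale, 2 libraries per group). The members concerned passed the filter on low values through the groups where they were high, which limits what these p-values can show. The fall was larger in KO than in WT for Hoxb13 (difference -0.79, limma adjusted p = 5.6e-07), Hoxc13 (-0.52, limma adjusted p = 0.00118) and Hoxb9 (-0.29, limma adjusted p = 0.0178). The Hoxb9 difference lost its call when some single libraries were left out, and without the filter at a pseudocount of 0.1 (limma adjusted p = 0.0695). KO against WT for Hoxb13 was 0.77 at day 0 and -0.02 at day 6, so its interaction largely restates the day 0 gap. For Hoxc13 KO against WT was 0.25 and -0.27, and for Hoxb9 0.21 and -0.08.

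With Dex against without Dex the fall was smaller for Hoxb13 (difference 0.60, limma adjusted p = 2.35e-05) and Hoxb9 (0.49, limma adjusted p = 0.000382), and larger for Hoxb2 (-0.46, limma adjusted p = 0.00114). The Hoxb9 difference lost its call at a pseudocount of 0.1 (0.78, limma adjusted p = 0.0839), and without the filter as well (0.142). Dex against no Dex for Hoxb13 was -0.54 at day 0 and 0.06 at day 6, and for Hoxb9 -0.49 and 0.0. Both interactions thus largely restate the day 0 gap. For Hoxb2 Dex against no Dex was 0.22 and -0.24. At a pseudocount of 1 the fit without a filter called the 6 differences too (limma adjusted p up to 0.0177).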

How the results depend on the processing

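In the filtered fit, of 78 called changes of the 5 leading members, 49 kept their call under every alternative, 24 lost it with at least 1 library left out, 26 under another alternative, and 0 reversed. The cause of these moves was not tested, except that the fit without a filter tests 38 members in place of 5. In the filtered fit between 26.7% and 81.9% of all genes were called in a comparison.

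Counts of members called, of 5 tested, for days 0, 2, 4 and 6 in turn, were 4, 3, 1 and 3 for KO against WT, 4, 2, 0 and 0 for the fusion line without Dex against KO, 5, 3, 0 and 1 for Dex against no Dex, and 4, 1, 0 and 2 for Dex against WT. Of all filtered genes, 48.2%, 58.9%, 60.5% and 65.1% were called for KO against WT, and 49.1%, 37.0%, 26.7% and 49.0% without Dex against KO. For Dex against no Dex the shares were 43.4%, 44.3%, 40.2% and 42.7%, and for Dex against WT 49.8%, 29.4%, 44.7% and 61.4%. Without the filter the counts of members were 13, 9, 2 and 8, then 16, 4, 0 and 0, then 13, 5, 0 and 1, then 18, 1, 2 and 4, beside the shares by direction given above. Without the filter and at a pseudocount of 0.1, the counts that moved were 9, 11, 3 and 9 for KO against WT, 12 (day 0) and 1 (day 6) without Dex against KO, 5 (day 2) and 2 (day 4) for Dex against no Dex, and 14, 2, 2 and 5 for Dex against WT. A pseudocount of 0.1 alone gave 2 (day 0) and 2 (day 4) for KO against WT, 3 (day 0) and 1 (day 4) for Dex against no Dex, and 2 (day 0) and 2 (day 2) for Dex against WT. With the compared groups only, counts were 2 at day 0 for KO against WT, 2 and 0 at days 0 and 2 without Dex against KO, 3 at day 0 for Dex against no Dex, and 2, 0 and 1 at days 0, 2 and 6 for Dex against WT. Rescaling gave 1 for Dex against WT at day 6.

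For day 6 against day 0, 4 members were called in WT and 5 in each other line. In the order WT, KO, no Dex and Dex, 78.1%, 80.4%, 81.9% and 80.4% of all filtered genes were called. In that order the unfiltered counts of members were 13, 21, 23 and 21, and at a pseudocount of 0.1 as well 17, 21, 22 and 21. For day 2 against day 0 the filtered counts were 4, 4, 5 and 5, beside 63.4%, 65.6%, 67.9% and 60.6% of all filtered genes. Without the filter they were 12, 19, 21 and 17, and at a pseudocount of 0.1 as well 13, 18, 21 and 19. The interaction of KO with day, 4 members beside 56.9% of all filtered genes, gave 10 without the filter, 8 at a pseudocount of 0.1 as well and 2 with the compared groups only. That of Dex, 4 members beside 48.7%, gave 13 without the filter, 7 at a pseudocount of 0.1 as well and 2 at a pseudocount of 0.1 alone. At a threshold of 0.5 FPKM 12 members counted as reached, and at 2 FPKM 1.

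Leaving out 1 library gave 2 to 5, 2 to 3, 0 to 1 and 1 to 2 for KO against WT at days 0, 2, 4 and 6, 3 to 4 and 1 to 2 without Dex against KO at days 0 and 2, 3 to 4 (day 0), 2 to 3 (day 2) and 0 to 1 (day 6) for Dex over no Dex, and 2 to 3, 0 to 1 and 0 to 1 for Dex against WT at days 0, 2 and 6. It gave 2 to 4 for the interaction of KO with day. Where a group was left with 1 library, that library was assumed to vary as the other groups do.

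The replicate block, though the numbers do not pair the libraries, gave 1 member in place of 2 for Dex against WT at day 6, and 4, 3, 1 and 2 for KO against WT.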
